A study of Homo sapiens with 6 samples.

Results

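This account covers 50 genes of the G1-S transition and of DNA replication in SW620, a line of human colorectal carcinoma cells that was raised from a lymph node metastasis. The genes were taken by name from a fixed list, and each had 1 line in the deposited count table, out of 60835 gene names in all. Bulk mRNA sequencing libraries were made from 3 samples labelled shDNM1, whose genotype is given as DNM1 Knockdown, and 3 labelled shControl, whose genotype is given as WT. DNM1 encodes dynamin 1, a GTPase that cuts vesicles from the cell membrane. All 6 samples came from SW620 cells grown in high-glucose DMEM with fetal bovine serum. The labels give neither the hairpin nor how it was delivered, and do not say whether the cells are a pool or a clone and whether each library had its own culture. The p-values therefore cover just the spread among these 6 libraries, part of which may be technical. The labels also place every shDNM1 library in batch_B and every shControl library in batch_A, so knockdown label and batch cannot be told apart in any result here.

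Copying the genome once per cell division starts with the loading of an inactive MCM2-7 helicase at origins by ORC, CDC6 and CDT1, an event called licensing. At the start of S phase, kinases recruit CDC45 and the GINS complex to MCM2-7, and this active CMG helicase unwinds the duplex ahead of DNA polymerases alpha, delta and epsilon. The clamp PCNA, its loader RFC, the flap nuclease FEN1 and the ligase LIG1 complete the strands, and RPA covers single-stranded DNA meanwhile. Transcription of most of these genes is driven by E2F factors, which are held back by RB proteins until cyclin-dependent kinases, among them cyclin E with CDK2, phosphorylate RB. In colon cancer cells these genes are used as markers of proliferation, and thymidylate synthase is the target of fluorouracil.

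Each library held between 12844534 and 13537519 counts. Levels are given as CPM, the reads of a gene as a share of 1000000 reads after TMM scaling (edgeR's trimmed-mean normalisation). In log2 CPM, Pearson correlations were at least 0.987 within shDNM1, at least 0.991 within shControl and at most 0.977 between them. DNM1 itself had 126, 97.8 and 126 CPM in the libraries labelled shDNM1, against 127, 127 and 133 CPM in shControl, a log2 fold change of -0.15 (SE 0.083, adjusted p = 0.189). The lower value of replicate 2 made most of that difference, and the log2 fold change was -0.04 without it. Without shDNM1 replicate 1 DNM1 was called lower (log2 fold change -0.20, adjusted p = 0.0399). Since the call on the target mRNA rests on which libraries are kept, the directions below compare libraries by label and do not rest on a proven fall of DNM1 mRNA. The 9 markers of colon epithelium summed to 11970 to 12830 deposited TPM (a share of all transcripts, corrected for gene length) in shDNM1 and 10620 to 11330 TPM in shControl. KRT8, KRT18, KRT19 and EPCAM made up nearly all of it, and KRT20 stayed under 2 TPM in both group means. The sum hides opposite directions: KRT8, KRT18 and KRT19 were higher in shDNM1, whereas EPCAM was lower, at 704 against 827 TPM. All 4 were called by edgeR's quasi-likelihood test on counts (adjusted p = 0.00408, 0.00345, 0.00276 and 0.0288). KRT8 did not pass with limma on log2(TPM + 1) (adjusted p = 0.0736). The EPCAM call was lost in edgeR without shDNM1 replicate 3 or shControl replicate 1 or 3 (adjusted p = 0.068, 0.0923 and 0.126). Summed fibroblast markers were at 36.2 to 54.3 TPM in shDNM1 and 28.6 to 36.1 TPM in shControl, most of it LUM, and summed leukocyte markers at 2.67 to 4.21 TPM in shDNM1 and 6.84 to 9.11 TPM in shControl, most of it LYZ. Summed endothelial markers were at 6.82 to 9.06 TPM in shDNM1 and 7.20 to 8.35 TPM in shControl. CD3E, COL3A1 and KDR had no count in any library, and PTPRC, CD68, COL1A2, DCN and CDH5 had at most 3 counts.

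Many replication genes were modestly lower in the libraries labelled shDNM1. Of the 50 genes, 22 fell, 3 rose and 25 did not pass at an adjusted p of 0.05 (edgeR's quasi-likelihood test, adjusted over the 16744 genes tested). Of all genes tested, 16.2% were called lower and 15.6% higher, whereas 44% of the 50 were called lower and 6% higher. The 50 genes were chosen with earlier results of these data known, so these shares are a description and not an independent comparison. All 50 passed the filter on low counts. Their median log2 fold change was -0.19, against -0.01 over all genes tested. The changes were small: 4 of the 25 called genes (CCNE1, GINS3, GINS2 and TYMS) differed by at least 1.5-fold, and a test against a minimum change of 1.2-fold called 9 genes lower. That test called 0 of the 50 higher. Of all 16744 genes tested, it called 2292 in either direction. The 2 sets of libraries did not overlap, with shDNM1 below, for 26 of the 50 genes, where this held for 23.1% of all genes tested. With shDNM1 above they were apart for 6 of the 50, against 21.2% of all genes tested. In bulk RNA, fewer cells in S phase and less of these mRNAs per cell cannot be told apart.

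**Figure D1:**
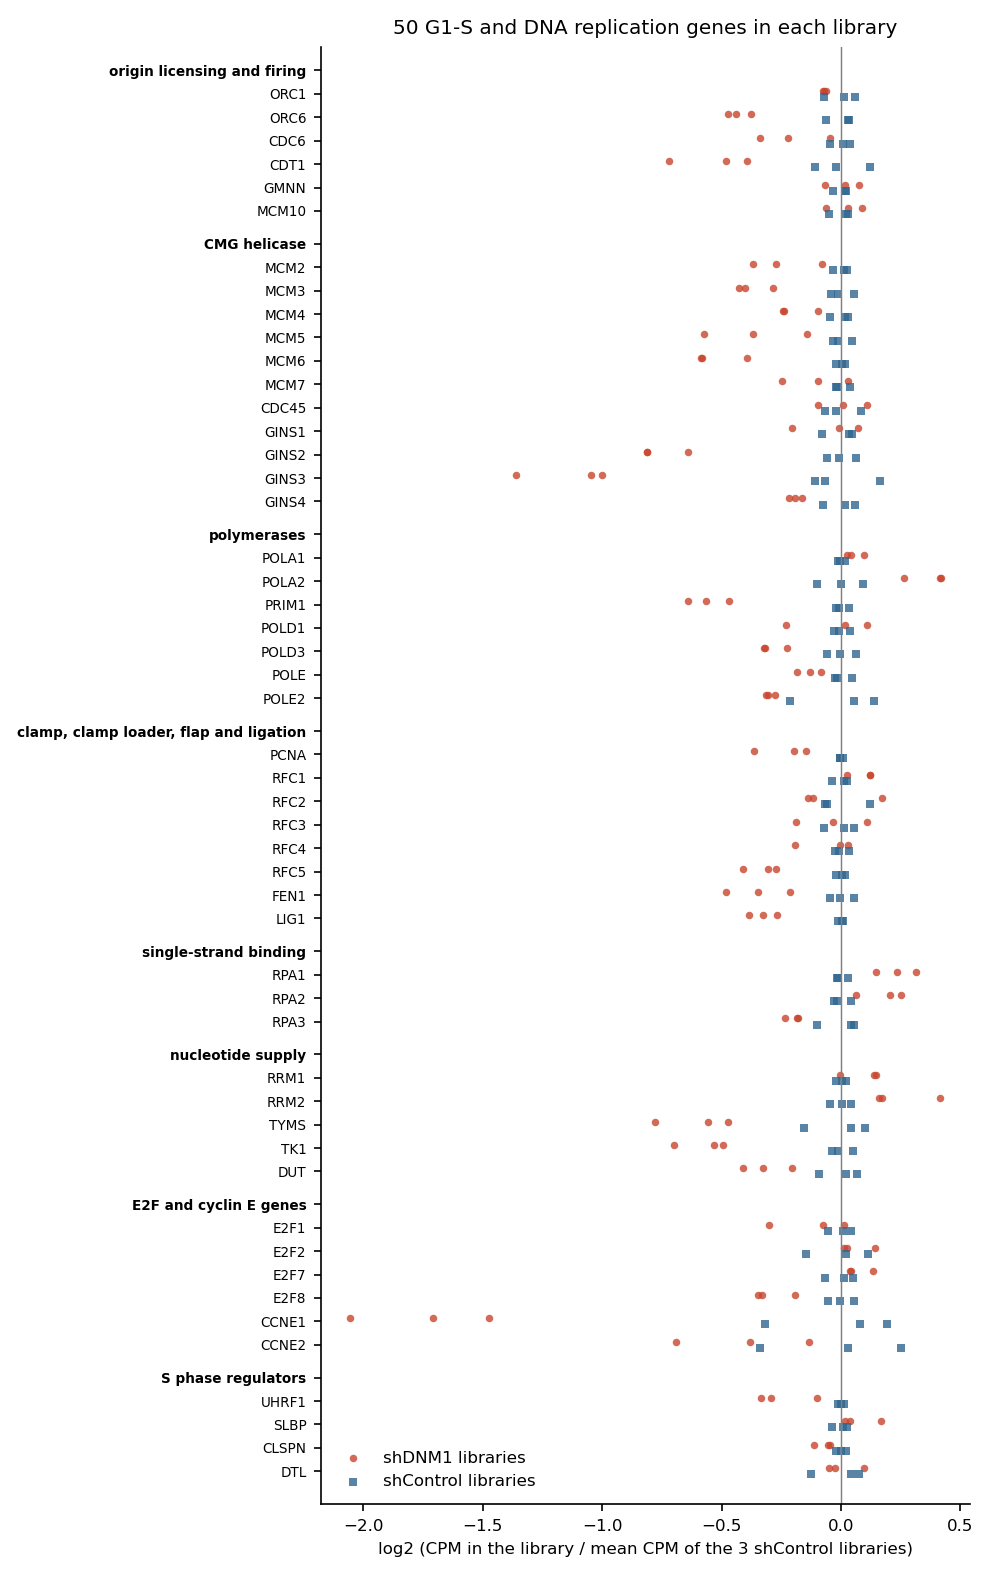
Level of each of the 50 genes in each library, as the log2 ratio of its CPM to the mean CPM of the 3 shControl libraries, grouped by role; circles are shDNM1 libraries and squares shControl libraries. Most circles of the helicase and nucleotide groups lie left of 0. Of all 50 genes, CCNE1 and GINS3 lie furthest left, while POLA2, RPA1 and RRM2 lie to the right.

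The 3 shDNM1 libraries did not deviate equally. The median log2 ratio of the 50 genes to the shControl mean was -0.21, -0.08 and -0.23 in shDNM1 replicates 1, 2 and 3, against -0.01, 0.02 and 0.01 in shControl replicates 1, 2 and 3. Replicate 2 was thus nearest to the controls, and it held the highest shDNM1 value for 30 of the 50 genes. It was also the library with the lowest DNM1, and 16347 genes reached 10 counts in it, against 16771 to 16896 genes in the other 5 libraries. The part of this in the values was not tested. Without shDNM1 replicate 2, 22 of the 50 genes were called lower and 2 higher. Without shDNM1 replicate 3 the calls were 16 lower and 4 higher. The calls over all genes tested changed as well. They numbered 5015 without replicate 2 and 4392 without replicate 3, against 5337 with all libraries.

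Letters of the E2F recognition sequence were searched for in the promoters. The choice of genes did not use these letters, but most of the genes are known to be driven by E2F factors. A high share with the letters is thus not independent of that choice. A few promoters are shown because members with large and small changes can be compared in them. RefSeq promoter windows (GRCh38.p14, 250 bases before to 50 after the start) were given for 42 of the 50 genes, the others being MCM4, MCM5, GINS4, POLD3, RPA2, RPA3, E2F8 and CCNE2. The letters TTTCCCGC, TTTCGCGC, TTTGCCGC and TTTGGCGC, common forms of the E2F recognition sequence, were searched on both strands, and overlapping matches were all counted. At least 1 of them was in 22 of the 42 windows (52.4%), against 20.5% of 44 windows of other replication genes, 8.82% of 34 windows of mitosis genes, 5.18% of 11154 windows of tested genes and 3.33% of all 27305 windows. The other 20 windows, among them those of CCNE1, TK1, DUT, FEN1 and PRIM1, hold none of these letters. G and C made up 66.2% of the bases in the windows of the 42 genes, 64.3% in those of tested genes and 57.2% in all. The letters were in 11 of 18 windows of genes called lower, in 10 of 21 of genes not called and in 1 of 3 of genes called higher, so windows with and without them were found in each class. CCAAT, the letters of another common promoter element, was in 57.1% of the 42 windows, 54.5% of those of other replication genes, 73.5% of those of mitosis genes and 35.7% of all. Its share here was thus between those of the other replication genes and the mitosis genes.

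The 160 bases before the start are given 5′ to 3′ on the strand of the gene, with matches to the E2F letters on either strand in capitals. They come from MCM6 (chr2:135876444-135876603, minus strand), CDT1 (chr16:88803629-88803788, plus strand), TYMS (chr18:657493-657652, plus strand), CCNE1 (chr19:29811831-29811990, plus strand) and E2F1 (chr20:33686386-33686545, minus strand). In MCM6 each capital run holds 2 overlapping matches on opposite strands, which makes 4 in that window, the most of any member. CCNE1, the gene that fell most, has none of these letters in its window, and E2F1, which was not called, has 2. Only exact matches to the letters given above were searched, so other forms of an E2F site would be left unmarked.
MCM6: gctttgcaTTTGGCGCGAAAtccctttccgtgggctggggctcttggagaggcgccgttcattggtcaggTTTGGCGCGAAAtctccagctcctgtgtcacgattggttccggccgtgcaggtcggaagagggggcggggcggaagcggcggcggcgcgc
CDT1: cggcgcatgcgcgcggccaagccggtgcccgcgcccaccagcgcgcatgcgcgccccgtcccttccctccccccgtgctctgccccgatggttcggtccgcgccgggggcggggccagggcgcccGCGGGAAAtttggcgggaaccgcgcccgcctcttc
TYMS: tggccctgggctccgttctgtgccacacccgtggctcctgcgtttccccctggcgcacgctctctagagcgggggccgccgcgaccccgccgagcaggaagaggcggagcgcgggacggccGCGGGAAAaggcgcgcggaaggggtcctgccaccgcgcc
CCNE1: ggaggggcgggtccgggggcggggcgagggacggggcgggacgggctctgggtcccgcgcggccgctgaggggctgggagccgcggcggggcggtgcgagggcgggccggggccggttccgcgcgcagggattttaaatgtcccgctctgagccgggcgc
E2F1: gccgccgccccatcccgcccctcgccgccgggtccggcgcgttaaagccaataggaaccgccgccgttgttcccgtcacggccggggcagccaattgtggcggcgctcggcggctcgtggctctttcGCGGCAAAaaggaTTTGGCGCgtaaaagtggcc

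Among the 6 genes that license and fire origins, CDT1 and ORC6 fell and the other 4 did not pass. CDT1, which brings the MCM2-7 helicase to origins (ENSG00000167513, GRCh38 chromosome 16, 88803789 to 88809258, plus strand), had 59.4, 70.1 and 74.3 CPM in shDNM1, against 90.6, 106 and 96.4 CPM in shControl. The sets did not overlap, and the level was 0.695 of shControl (log2 fold change -0.53, SE 0.085, adjusted p = 0.000108). ORC6, a subunit of the origin recognition complex, had 74.6, 76.4 and 79.9 CPM in shDNM1, against 106, 106 and 99.1 CPM in shControl, again with a clear gap between the sets (log2 fold change -0.43, SE 0.066, adjusted p = 7.12e-05). GMNN, which encodes the CDT1 inhibitor geminin, had 62.1 ± 2.98 CPM in shDNM1 and 61.7 ± 1.28 CPM in shControl (SD, n = 3 each), with a 95% interval of the fold from 0.908 to 1.12. The ratio of CDT1 to GMNN in deposited TPM was 0.434, 0.532 and 0.598 in the shDNM1 libraries, against 0.687, 0.838 and 0.733 in the shControl libraries. CDC6, the ATPase that loads the helicase together with CDT1, was at 0.873 of shControl (interval 0.783 to 0.973) and narrowly missed the threshold (adjusted p = 0.0519), while 9 of 20 other settings called it lower. ORC1, the ATPase subunit of the origin complex, and MCM10, which acts when the helicase is activated, were at 0.952 and 1.01 of shControl, and their intervals ran from 0.858 to 1.06 and from 0.919 to 1.12.

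The subunits of the replicative CMG helicase were the largest role group and had the most calls. Of its 11 genes 7 fell (63.6%), namely MCM2 to MCM6, GINS2 and GINS3, and 4 did not pass. The share that fell was similar in the nucleotide supply group, with 3 of 5 genes (60%), where 1 gene rose. GINS2 (ENSG00000131153, chromosome 16, 85676198 to 85690073, minus strand) had 33.9, 30.1 and 30.1 CPM in shDNM1, against 52.7, 55.3 and 50.7 CPM in shControl. Every shDNM1 library was well under every control, at 0.593 of the shControl level (log2 fold change -0.75, SE 0.082, adjusted p = 1.62e-06). GSE1, on the opposite strand over part of GINS2, held 572.5% as many counts and also fell (log2 fold change -0.16), and since no source says whether counting used strand, the GINS2 counts are uncertain. The second GINS subunit to fall was GINS3 (chromosome 16, 58295080 to 58406147, plus strand), with 6.21, 7.73 and 7.98 CPM in shDNM1, against 15.3, 17.9 and 14.8 CPM in shControl. The sets lay far apart, with the level at 0.457 of shControl (log2 fold change -1.13, SE 0.14, adjusted p = 9.8e-06). GINS1 and GINS4 did not pass, at 0.970 (interval 0.867 to 1.09) and 0.876 (interval 0.765 to 1.00) of shControl. NINL, opposite to GINS1, held 94.9% as many counts.

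MCM6 (ENSG00000076003, chromosome 2, 135839626 to 135876443, minus strand) fell most among the ring subunits, with 157, 179 and 156 CPM in shDNM1, against 235, 237 and 231 CPM in shControl (log2 fold change -0.52, SE 0.066, adjusted p = 8.79e-06). MCM3 had 315, 348 and 321 CPM in shDNM1, against 411, 439.9 and 419.7 CPM in shControl (log2 fold change -0.37, SE 0.062, adjusted p = 0.00015). In both genes the 3 controls lay above every shDNM1 library, and for MCM6 they also lay close together. MCM5, MCM2 and MCM4 were at 0.783, 0.849 and 0.876 of shControl (adjusted p = 0.00335, 0.0157 and 0.0237). The MCM2 call was lost without shDNM1 replicate 3 (adjusted p = 0.0737) or shControl replicate 1 (adjusted p = 0.0661). The MCM4 call was lost without shDNM1 replicate 3, shControl replicate 1 or shControl replicate 2 (adjusted p = 0.112, 0.102 and 0.068). MCM7, the sixth ring subunit, was at 0.933 of shControl and did not pass (interval 0.844 to 1.03), and CDC45, which joins the ring to GINS, was at 1.01 (interval 0.905 to 1.12). These subunits act as single copies in 1 complex, yet their mRNA levels per gene length were uneven. In deposited TPM the 6 ring subunits spanned 82.6 (MCM5) to 411 (MCM7) in shDNM1, a 4.98-fold range, and 110.1 (MCM5) to 459.9 (MCM7) in shControl, a 4.18-fold range. Among the GINS genes the range was 7.56-fold in shDNM1, with GINS1 highest at 50.4 TPM and GINS3 lowest at 6.67 TPM, and 4.03-fold in shControl, with GINS2 highest at 61.3 TPM and GINS3 lowest at 15.2 TPM. The GINS ranges are uncertain too, given the genes that overlap GINS1 and GINS2.

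**Figure D2:**
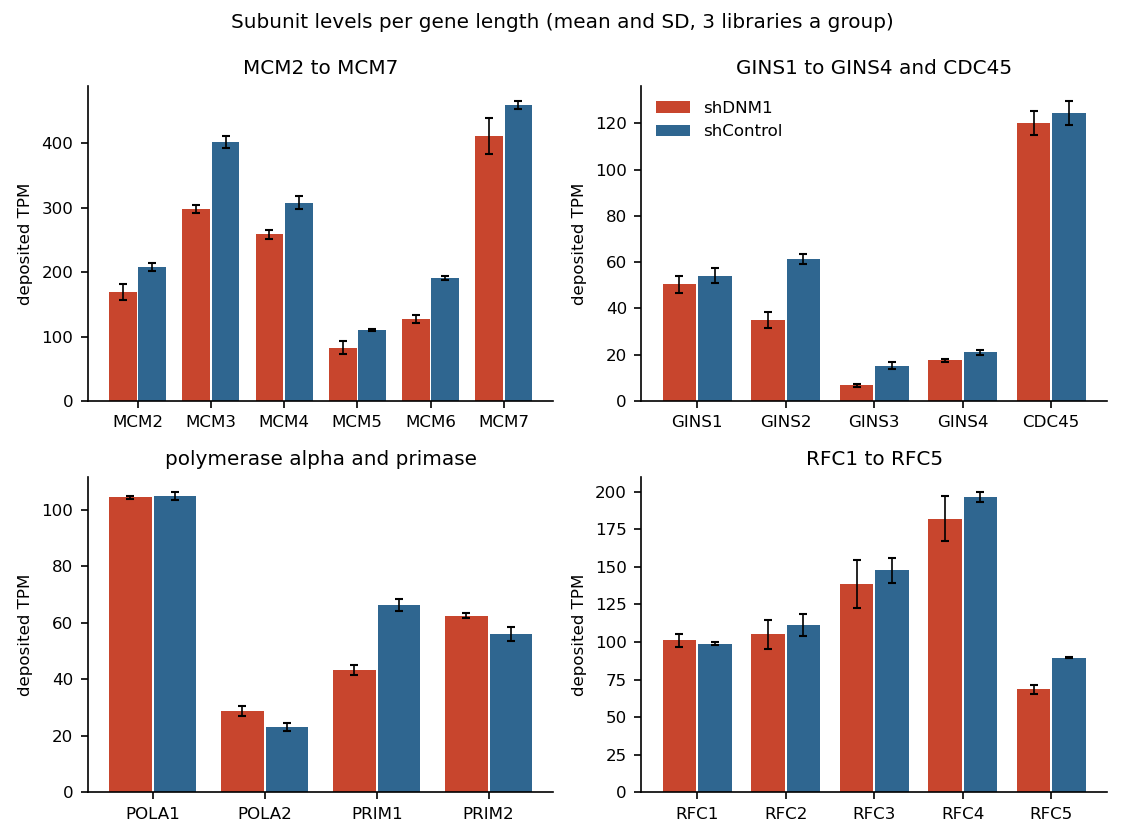
Deposited TPM of the subunits of 4 replication complexes, bars giving the mean and error bars the SD of 3 libraries, shDNM1 left and shControl right of each pair. MCM5 was the lowest and MCM7 the highest ring subunit in both groups, and POLA2 and PRIM2 stood higher in shDNM1 while PRIM1 stood lower.

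Of 7 subunits of the DNA polymerases, 3 fell (42.9%), 1 rose (14.3%) and 3 did not pass. Of all genes tested, 16.2% were called lower and 15.6% higher, so the share that rose was near that of all genes. PRIM1, the catalytic subunit of the primase that starts each new strand (ENSG00000198056, chromosome 12, 56730438 to 56752374, minus strand), had 27.6, 29.5 and 26.2 CPM in shDNM1, against 41.7, 40.1 and 40.5 CPM in shControl. The libraries of each set lay close together with a wide gap between the sets (0.680 of shControl, log2 fold change -0.56, SE 0.084, adjusted p = 5.66e-05). NACA, on the same strand and overlapping the PRIM1 span, held 593% as many counts and also fell (log2 fold change -0.27), so reads shared between them would matter for PRIM1. POLA2, the regulatory B subunit of polymerase alpha in the same complex as PRIM1, rose, with 39.4, 39.3 and 35.4 CPM in shDNM1, against 27.5, 29.5 and 31.5 CPM in shControl (1.29-fold, log2 fold change 0.37, SE 0.088, adjusted p = 0.00353). PRIM2, the large primase subunit and not among the 50 genes, was 1.17-fold higher (adjusted p = 0.0317), a call lost without shDNM1 replicate 2 or 3 or any shControl replicate (adjusted p = 0.0947, 0.0608, 0.0652, 0.0583 and 0.172). POLA1, the catalytic subunit, was at 1.04 of shControl (interval 0.953 to 1.13).

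POLD3, an accessory subunit of the lagging-strand polymerase delta, had 66.9, 71.6 and 67.0 CPM in shDNM1, against 87.3, 80.3 and 83.4 CPM in shControl (log2 fold change -0.29, SE 0.069, adjusted p = 0.00337). POLE2, the B subunit of polymerase epsilon, had 24.1, 23.6 and 23.5 CPM in shDNM1, against 30.3, 25.2 and 32.2 CPM in shControl (log2 fold change -0.30, SE 0.10, adjusted p = 0.0317). shControl replicate 2 lay close to the shDNM1 values, and the POLE2 call was lost without shDNM1 replicate 2 or 3 or shControl replicate 1 or 3 (adjusted p = 0.0632, 0.0863, 0.124 and 0.174) and with DESeq2 (adjusted p = 0.0861). The catalytic subunits POLD1 and POLE did not pass, at 0.980 (interval 0.875 to 1.098) and 0.912 (interval 0.834 to 0.996) of shControl.

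At the sliding clamp and in the joining of Okazaki fragments, 4 of 8 genes fell and 4 did not pass. FEN1, the nuclease that removes the flap before ligation (ENSG00000168496, chromosome 11, 61792911 to 61797238, plus strand), had 114, 137 and 125 CPM in shDNM1, against 159, 165 and 154 CPM in shControl (log2 fold change -0.34, SE 0.071, adjusted p = 0.00111). LIG1, which seals the nick, had 54.5, 56.8 and 59.1 CPM in shDNM1, against 70.7, 71.6 and 71.6 CPM in shControl (log2 fold change -0.33, SE 0.069, adjusted p = 0.00136). For both genes every shControl library was above every shDNM1 library, and the controls were less spread. The clamp gene PCNA, the most abundant of the 50 genes per length at 789.8 TPM in shDNM1 and 966 TPM in shControl, had 389.6, 376 and 334 CPM in shDNM1, against 429.7, 429 and 433 CPM in shControl. It fell to 0.851 of shControl (adjusted p = 0.00996), and the call was lost without shDNM1 replicate 3 (adjusted p = 0.0826).

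Of the 5 subunits of the clamp loader only RFC5 passed the test, with 58.4, 59.6 and 54.2 CPM in shDNM1, against 71.0, 72.9 and 72.4 CPM in shControl (log2 fold change -0.33, SE 0.070, adjusted p = 0.00145). WSB2, on the opposite strand, held 114% as many counts and rose (log2 fold change 0.22). RFC1, RFC2, RFC3 and RFC4 were at 1.07, 0.984, 0.978 and 0.964 of shControl, with intervals within 0.866 to 1.16. A decrease as large as that of RFC5, to 0.796, lies below all 4 intervals, but the differences between the subunits were not themselves tested. Of the 3 subunits of the single-strand binding protein RPA, 1 rose and the other two did not pass. RPA1, the large subunit, had the rise, with 271, 305 and 289 CPM in shDNM1, against 243, 243 and 251 CPM in shControl (1.17-fold, log2 fold change 0.23, SE 0.062, adjusted p = 0.00767). RPA2 and RPA3 did not pass, at 1.13 and 0.871 of shControl, with intervals of 0.02 to 0.33 and -0.38 to -0.01 on the log2 scale.

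Of the 5 genes of nucleotide supply, TK1, TYMS and DUT, which all act in making thymidylate, fell. Of the ribonucleotide reductase genes RRM2 rose and RRM1 did not pass. TK1, which salvages thymidine and is made in S phase (ENSG00000167900, chromosome 17, 78174091 to 78187233, minus strand), had 122, 140.4 and 137 CPM in shDNM1, against 193, 205 and 196 CPM in shControl, or 0.672 of the control level (log2 fold change -0.57, SE 0.067, adjusted p = 3.56e-06). TYMS, thymidylate synthase (ENSG00000176890, chromosome 18, 657653 to 673578, plus strand), had 13.9, 14.8 and 11.9 CPM in shDNM1, against 18.4, 21.1 and 21.97 CPM in shControl. It was at 0.660 of shControl (log2 fold change -0.60, SE 0.12, adjusted p = 0.000948). ENOSF1, which overlaps TYMS on the opposite strand, held 404% as many counts and was not called (log2 fold change -0.22). DUT, which turns dUTP into the dUMP that TYMS uses, had 83.7, 96.5 and 88.9 CPM in shDNM1, against 105, 113 and 117 CPM in shControl (log2 fold change -0.31, SE 0.072, adjusted p = 0.00257). For all 3 genes every shDNM1 library was below every shControl library.

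RRM2, the small and cell cycle-regulated subunit of ribonucleotide reductase, had 226, 269 and 228 CPM in shDNM1, against 202, 196 and 208 CPM in shControl (1.19-fold, log2 fold change 0.25, SE 0.071, adjusted p = 0.0106). shDNM1 replicate 2 was the highest by far, and the call was lost without it (adjusted p = 0.0517) or without shControl replicate 2 (adjusted p = 0.0527). RRM1, the large subunit, was at 1.07 of shControl (interval 0.976 to 1.17). The ratio of RRM2 to RRM1 in deposited TPM was 0.603, 0.723 and 0.675 in shDNM1 and 0.608, 0.577 and 0.606 in shControl, and these values overlapped.

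Some thymidylate genes outside the 50 were also measured. SHMT1, which makes the folate that TYMS consumes, fell most in a list of 52 other replication genes. It had 25.2, 28.5 and 27.1 CPM in shDNM1, against 49.1, 51.3 and 46.6 CPM in shControl (log2 fold change -0.86, SE 0.084, adjusted p = 4.2e-07). DTYMK, the kinase that acts on the product of TYMS and TK1, was at 0.756 of shControl (adjusted p = 0.000426). TK2, the mitochondrial thymidine kinase, had 20.7, 26.2 and 20.5 CPM in shDNM1, against 24.6, 23.2 and 24.4 CPM in shControl, and did not pass (log2 fold change -0.10, SE 0.11, adjusted p = 0.524). DTYMK and TK2 were picked after their values were seen, so no count is drawn from these genes together.

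**Figure D3:**
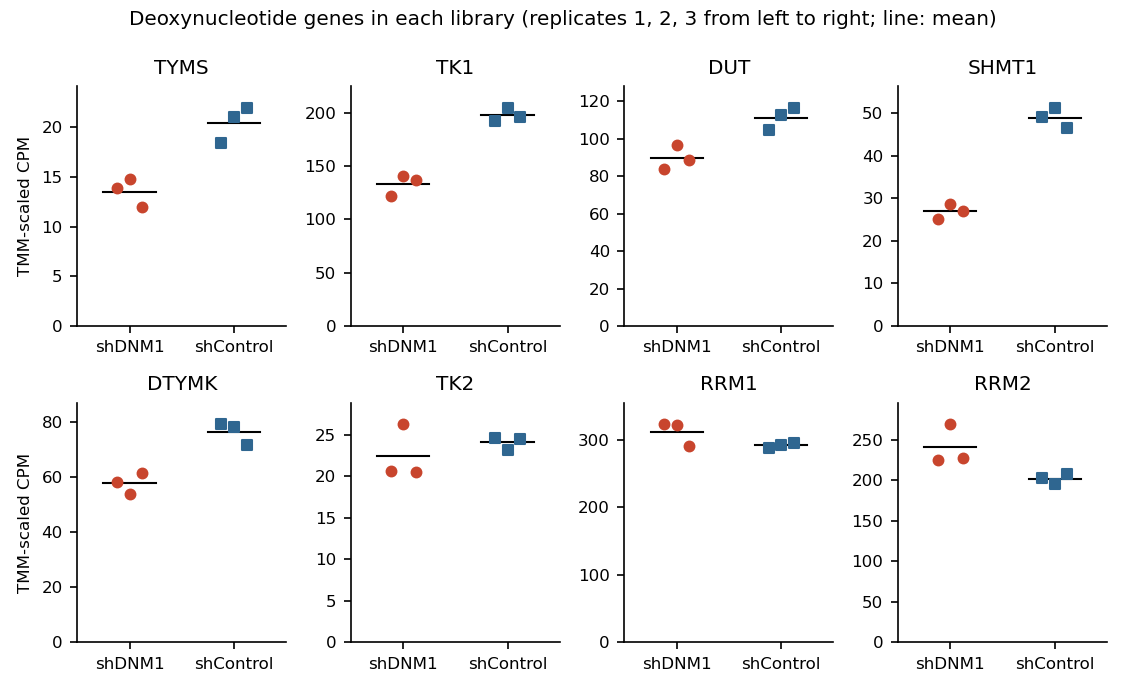
TMM-scaled CPM of 8 deoxynucleotide genes in each library, shDNM1 left and shControl right in each panel, with a line at the mean of 3 libraries. TYMS, TK1, DUT, SHMT1 and DTYMK lie lower in every shDNM1 library than in any shControl library, whereas TK2 and RRM1 overlap and RRM2 is higher.

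Cyclin E and the E2F factors sit upstream of the genes above. CCNE1, cyclin E1, the partner of CDK2 at the G1-S transition (ENSG00000105173, chromosome 19, 29811991 to 29824312, plus strand), fell most of all 50 genes. It had 1.79, 1.196 and 1.52 CPM in shDNM1, against 3.99, 5.67 and 5.24 CPM in shControl, or 23, 15 and 20 reads against 52, 77 and 68. It was at 0.304 of shControl with a wide interval of 0.209 to 0.442 (log2 fold change -1.72, SE 0.26, adjusted p = 5.26e-05). At 2.26 TPM in shDNM1 and 7.73 TPM in shControl, it was 1 of the 2 least abundant members per length. The other was CCNE2, cyclin E2, which had 7.38, 5.02 and 6.23 CPM in shDNM1, against 8.28, 6.41 and 9.64 CPM in shControl, and did not pass (0.768 of shControl, interval 0.582 to 1.01). INTS8 and NDUFAF6, opposite to CCNE2, held 715% and 335% as many counts. CDK2, from the list of other replication genes, was at 0.833 of shControl (adjusted p = 0.00849); its call was lost without shControl replicate 3 (adjusted p = 0.0515).

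The activating factors E2F1 and E2F2 did not pass, at 0.923 (interval 0.817 to 1.04) and 1.04 (interval 0.899 to 1.21) of shControl. Of the repressors E2F7 and E2F8, E2F7 was at 1.05 (interval 0.940 to 1.18). E2F8 had 16.4, 18.0 and 16.2 CPM in shDNM1, against 19.9, 20.6 and 21.4 CPM in shControl (log2 fold change -0.29, SE 0.11, adjusted p = 0.0455). Its values did not overlap, but the call held under only 9 of 20 other settings. It was lost without shDNM1 replicate 1 or 3 (adjusted p = 0.0773 and 0.121) and without any of the shControl replicates (adjusted p = 0.0796, 0.0906 and 0.144). TFDP2, a dimer partner of E2F factors such as E2F1, had 53.8, 51.2 and 49.4 CPM in shDNM1, against 68.4, 81.2 and 77.5 CPM in shControl (log2 fold change -0.56, SE 0.078, adjusted p = 2.7e-05). E2F3, from the same list, was at 1.05 (interval 0.941 to 1.16).

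Of the 4 remaining S phase regulators only UHRF1 passed the test. UHRF1, which guides DNA methyltransferase to newly copied DNA, had 219.6, 259 and 226 CPM in shDNM1, against 279.8, 277 and 275 CPM in shControl (0.847 of shControl, log2 fold change -0.24, SE 0.067, adjusted p = 0.0103). shDNM1 replicate 2 came close to the controls, and without shDNM1 replicate 3 the call was lost (adjusted p = 0.0618). SLBP, which binds histone mRNA, CLSPN, a fork protein of the replication checkpoint, and DTL, which directs CDT1 to degradation, were at 1.05, 0.951 and 1.01 of shControl, with intervals within 0.869 to 1.16. Overlapping genes held a further share of reads at RFC4 (EIF4A2, 648% as many counts), DTL (INTS7, 73.3%), RPA3 (UMAD1, 44.1%), RPA1 (SMYD4, 17.8%) and FEN1 (FADS2, 11.6%), so counts of these 5 genes are less certain too.

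**Figure D4:**
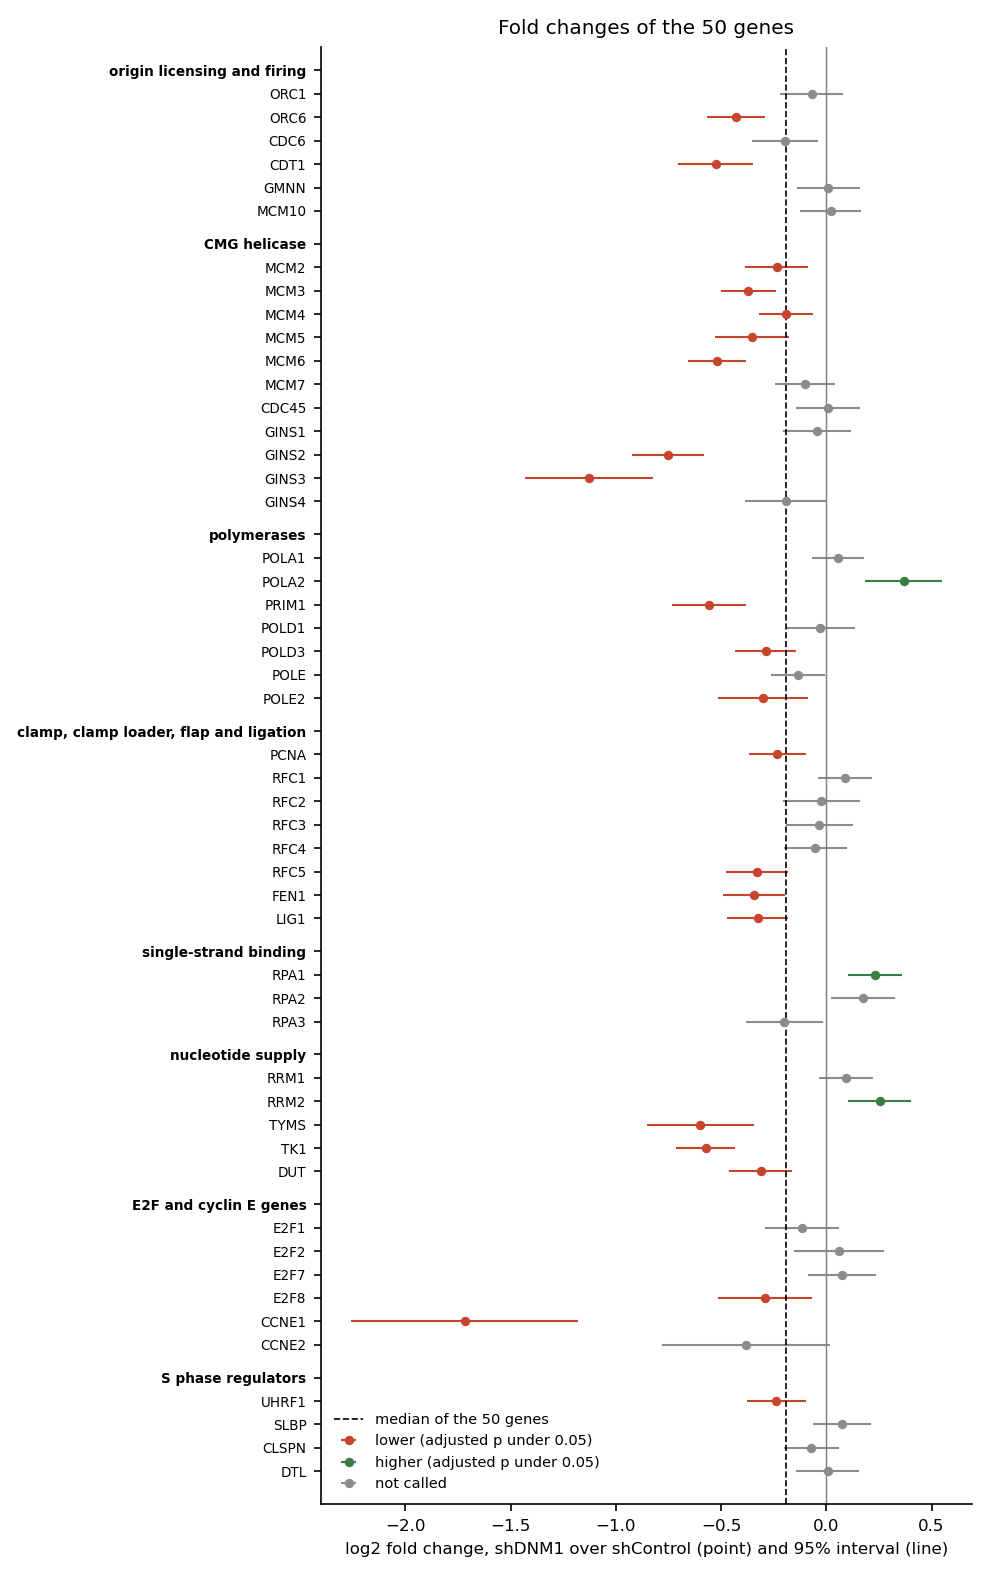
Log2 fold change of the 50 genes (shDNM1 over shControl), with 95% intervals from edgeR's quasi-likelihood fit, grouped by role; colours give the calls and the dashed line the median of -0.19. The 22 genes called lower are spread over 7 of the 8 role groups, and the 3 called higher are POLA2, RPA1 and RRM2.

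In the list of 52 other replication genes 14 fell (26.9%), 7 rose (13.5%) and 31 did not pass, with a median log2 fold change of -0.10. The share that rose was near the 15.6% of all genes tested, and the share that fell stood beside 16.2%. Whether this list differed from the 50 genes was not tested. Besides SHMT1 and TFDP2, the genes called lower included MCMBP, which binds free MCM complexes, with 164, 183 and 166 CPM in shDNM1, against 233, 229.5 and 225 CPM in shControl (log2 fold change -0.42, SE 0.063, adjusted p = 4.92e-05). The 7 that rose were ORC5, POLE4, SKP2, CDC25A, CMPK1, PRIM2 and SAMHD1, from 1.15-fold to 1.34-fold. Without shControl replicate 1, 2 or 3, or shDNM1 replicate 2 or 3, the number that rose was 4, 4, 3, 3 and 4. Scaled by library size alone or in TPM, 4 and 2 rose while 20 and 18 fell. These scalings also lowered the log2 fold changes of all genes tested. The median shift was -0.0355 with library size alone and -0.058 with log2(TPM + 1).

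Mitosis genes, another set of proliferation genes, were called lower at a rate near that of all genes. Of 39 tested genes of this list, 7 fell (17.9%) and 4 rose (10.3%), with a median log2 fold change of -0.01; NUSAP1 was below the count filter. CDC25B, a phosphatase that activates CDK1, was 1.61-fold higher (adjusted p = 2.26e-07), the kinase gene PLK1 1.27-fold (adjusted p = 0.00252) and the mitotic kinesin gene KIF23 1.21-fold (adjusted p = 0.00475). CDCA8, which encodes a subunit of the chromosomal passenger complex, was at 0.716 of shControl (adjusted p = 7.08e-05). The number that rose was 8 without shDNM1 replicate 1, and the number that fell was 2 without shDNM1 replicate 3 and 4 without shControl replicate 3. Whether the 50 genes and the mitosis genes differed was not tested as sets.

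**Figure D5:**
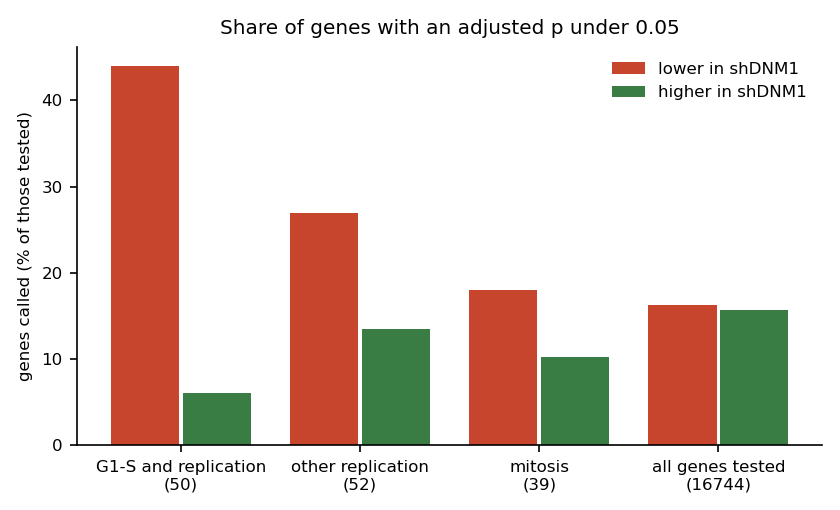
Share of genes called lower and higher in shDNM1 (adjusted p under 0.05) among the 50 G1-S and replication genes, 52 other replication genes, 39 mitosis genes and all 16744 genes tested. The share called lower is 44%, 26.9%, 17.9% and 16.2% from left to right.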

How the data were processed

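RNA of 6 SW620 libraries was sequenced, 3 labelled shDNM1 and 3 labelled shControl. The authors deposited whole-number read counts per gene, and beside them a table of TPM. The deposited TPM values are used here as a score of level per gene length, since they sum to 1000000 only over unique gene names. The genome build is GRCh38, per the submitters' processing notes, and no source used here gives the aligner, the counter or the strand setting. Lines that repeat a gene name with identical values were used once.

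Counts were filtered with filterByExpr, scaled by TMM and tested with edgeR 4.0.16 (quasi-likelihood F test, Benjamini-Hochberg adjustment over 16744 genes, R 4.3.3); calls needed an adjusted p under 0.05. No covariate was fitted, because batch and group coincide. Standard errors and 95% intervals were derived from the F statistic. Alternatives were DESeq2 1.42.0, limma 3.58.1 on counts and on log2 TPM, other scalings and filters, a 1.2-fold minimum (glmTreat), a replicate term and leaving out each library; removal of trends with GC content or length was added after seeing the data. The pipeline was tested on simulated data. Totals of 12844534 to 13537519 counts limit precision for CCNE1, GINS3 and CCNE2. Members, lists and tests were chosen with earlier results of these data known. Named genes were those called with the smallest p in each role, at most 4, plus called genes of the opposite direction; DTYMK, TK2, CDK2, E2F3, PRIM2 and the E2F1 promoter, outside that rule, were taken after their values were seen. Overlapping genes and same-named copies were looked up by position and symbol. Copies held at most 0.992% of a member's counts. Some items are not reported here by name, though counts over lists and summed marker levels include them.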

Additional observations from a re-analysis of the deposited data

How the results depend on the processing

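Of the 22 genes called lower, 16 were called in all 19 alternatives other than the 1.2-fold minimum, as were POLA2 and RPA1 among the 3 called higher. The number lower ran from 16 to 22 and the number higher from 2 to 4 when 1 library was left out, and DESeq2 called 20 of the 22. Calls over all genes tested ran from 3990 to 5890 when 1 library was left out. Scaling by library size alone, or log2 TPM, gave 25 lower. These settings also lowered the log2 fold changes of all genes tested. The median shift was -0.0355 with library size alone, -0.058 with log2(TPM + 1) and -0.0591 with log2(TPM + 0.1). With the 1.2-fold minimum (glmTreat in edgeR) 9 members fell and 0 rose, with 1 higher at an unadjusted p under 0.05 and 3 higher by DESeq2. Of all genes tested, 5337 were called, against 2292 with that minimum and 3503 at an adjusted p under 0.01.

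Among the other replication genes, 7 fell and 0 rose with the 1.2-fold minimum (2 higher at an unadjusted p under 0.05, and 7 higher by DESeq2). The number that rose was 4 with library size alone, 2 with log2(TPM + 1), 2 with log2(TPM + 0.1), 3 at an adjusted p under 0.01 and 3 to 7 when 1 library was left out. Among mitosis genes 1 fell with the 1.2-fold minimum, 2 fell at an adjusted p under 0.01, and 2 to 10 fell when 1 library was left out. Those that rose numbered 2 with log2(TPM + 1), 2 with log2(TPM + 0.1), 1 with the 1.2-fold minimum and 3 to 8 when 1 library was left out. DNM1 was called lower with the GC trend removed (log2 fold change -0.2151, adjusted p = 0.0349, a setting added after seeing the data) and without shDNM1 replicate 1 (adjusted p = 0.0399), and its value ran from -0.2049 to -0.0373 when 1 library was left out. The cause was not tested.

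Members whose sign turned were 11, 0 of them called. Some of these settings shifted all genes tested downward as well. The median shift was -0.0158 with upper quartile factors, and those of library size alone and log2 TPM are given above. GMNN was at -0.0067 with upper quartile factors, -0.0264 with library size alone, -0.0496 and -0.0499 with log2(TPM + 1) and log2(TPM + 0.1), -0.0155 with the length trend removed and -0.022 to 0.0466 when 1 library was left out. In the same order CDC45 was at -0.0078, -0.0279, -0.0499, -0.0502, -0.0094 and -0.0425 to 0.0602. DTL was at -0.0091, -0.029, -0.0488 and -0.0494 under the first 4 and -0.0452 to 0.0398 when 1 library was left out. MCM10 was at -0.016 with library size alone, -0.0384 and -0.0391 with log2 TPM and -0.0137 to 0.0615 when 1 library was left out. POLA1 was at -0.0038 with both log2 TPM settings. RFC3 was at 0.0083 with the GC trend removed and -0.1074 to 0.041 when 1 library was left out. The same ranges were -0.104 to 0.0336 for GINS1, -0.1014 to 0.0651 for POLD1, -0.1287 to 0.0379 for RFC2, -0.0932 to 0.0148 for RFC4 and -0.0003 to 0.1144 for E2F2.

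With the replicate number as a block 23 members fell, 3 rose and 6080 genes were called in all. Deviations of same-numbered libraries correlated at 0.102, 0.0634 and -0.033. Libraries numbered 1 and 2 correlated best with their own number, and those numbered 3 did not. Whether same-numbered libraries share more than a number was not tested. Other replication genes numbered 20 lower and 7 higher with the block, and mitosis genes 10 lower and 5 higher.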
